A study of Sus scrofa with 32 samples.

Results

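The 7 genes described here encode the machinery that prepares and displays peptides on MHC class I: B2M, TAP1, TAP2, PSMB8, PSMB9, PSMB10 and NLRC5. They were picked by symbol as a functional group, and all 7 of 7 were found among the 25880 genes of the single-cell count matrices. The cells came from 2 mixed-breed pigs aged 7 weeks, a female (pig 1) and a male (pig 2), for which the labels give no treatment. From each pig, ileum with Peyer's patches (PP), ileum without Peyer's patches (non-PP), a whole ileum cross-section and peripheral blood mononuclear cells (PBMC) were each made into 1 droplet library, giving 8 libraries that hold 21134542 to 40111934 unique molecular identifiers (UMIs, counted transcript molecules). For the ileum, the epithelium was first stripped off with EDTA, the remaining tissue was digested with enzymes, and both fractions were pooled and enriched for live lymphocytes, whereas blood cells were separated by density alone, so that tissue and preparation cannot be told apart. Each group is made of the same 2 pigs. The p-values of the main tests rest on the spread between these 2 animals, pooled over all groups in a fit.

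Nearly every nucleated cell displays short peptides of its own proteins on MHC class I, where CD8 T cells and natural killer cells inspect them. The peptides are cut by the proteasome, a barrel-shaped protease whose 3 constitutive catalytic subunits (PSMB6, PSMB5 and PSMB7) can be replaced by the inducible immunosubunits PSMB9, PSMB8 and PSMB10, respectively, to form the immunoproteasome. TAP1 and TAP2 pair into the transporter that carries peptides into the endoplasmic reticulum, B2M is the invariant light chain without which class I heavy chains are not stably displayed, and NLRC5 is the transcriptional coactivator of class I genes. Interferon-gamma is a classical inducer of the whole set, in part through the transcription factor IRF1. Peyer's patches, the lymphoid follicles of the ileal wall, are filled mainly with B cells.

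On the pig assembly Sscrofa11.1, 4 of the genes lie side by side within the MHC on chromosome 7: TAP2 (25045085 to 25056915), PSMB8 (25058456 to 25061666), TAP1 (25062772 to 25071989) and PSMB9 (25072133 to 25077508), which together span 32424 bases. TAP1 and PSMB9 are separated by 143 bases. PSMB10 (28544910 to 28547609) and NLRC5 (18933179 to 19036288) lie on chromosome 6. B2M has 2 annotated entries on chromosome 1 (126837721 to 126844043 and 126865767 to 126878501), while the matrices hold 1 B2M feature, so its count may leave out reads that match both copies.

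Of 48629 cells with at least 1250 UMIs, at least 550 genes and at most 12.5% mitochondrial UMIs, all but 14097 fell into lineage gates set on raw UMIs of a marker gene: 18751 in the CD3E gate (T cells), 14667 in the CD79B gate (B cells), 451 in the JCHAIN gate (antibody-secreting cells), 367 in the EPCAM gate (epithelial cells) and 296 in the SIRPA gate (myeloid cells). Apart from the CD2+ cells described further on, the cells outside the gates were not used. Markers not used for gating followed the gates: summed B-cell markers reached 1396 to 1700 UMIs per 1000000 UMIs (CPM) in the ileal CD79B gate and 16.8 to 75.1 CPM in the CD3E gate, and summed epithelial markers reached 7716 to 10741 CPM in the EPCAM gate. T-cell markers were also measured in the ileal CD79B gate, at 389.6 to 611 CPM against 3932 to 5284 CPM in the ileal CD3E gate, and their part in the results was not tested. Y-linked transcripts were at 206.6 CPM in the whole ileum library labelled as coming from the female pig 1 and at no more than 0.224 CPM in the other 3 libraries of that pig. The library labelled whole ileum pig 1 therefore goes against its label, and both whole ileum libraries were left out of the sums per pig that were tested. Both did enter the share tests, the correlations and, as a group of their own, the fit per library that compared PP with non-PP. The tested ileal sums hold PP and non-PP cells of a pig, and the effect of adding the whole ileum libraries is given with the other alternatives. In the CD79B gate, PP supplied 3195 of 3211 cells in pig 1 and 3212 of 3256 in pig 2. In the CD3E gate, PP supplied 1772 of 4878 and 1767 of 4261 cells. The tested ileal B cells are therefore almost all from PP, and gates differ in dissection as well as lineage.

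In the ileum, B cells were lower in 6 of the 7 genes and epithelial cells higher in all 7, each gate being set against the average of the rest. B2M in the CD79B gate was 1889 CPM in PP of pig 1, 1804 in PP of pig 2, 1717 in non-PP of pig 2, 2199 in the library labelled whole ileum pig 1 and 1530.2 in whole ileum of pig 2, non-PP of pig 1 holding only 16 such cells. In the CD3E gate, B2M was 7926 and 10519.6 CPM in PP of pigs 1 and 2, 7779 and 10731 in non-PP, 10199 and 10725 in whole ileum. The lowest ileal T-cell value lay above the highest ileal B-cell value, so the gates did not overlap. Summed per pig, ileal B-cell B2M was 6.22-fold below the mean of the other ileal gates (log2 difference −2.64 ± 0.21 SE, n = 2 pigs, edgeR quasi-likelihood test, adjusted p = 9.73e-07).

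The transporter followed the same order. TAP1 in the ileal CD79B gate ranged from 40.4 CPM (non-PP pig 2) to 56.6 CPM (the library labelled whole ileum pig 1), in the CD3E gate from 84.9 to 111.8 CPM and in the EPCAM gate from 176 to 263.9 CPM, without overlap between the 3 gates. TAP2 ranged from 10.1 to 44.6 CPM in B cells, from 59.2 to 80.3 CPM in T cells and from 81.2 to 121.9 CPM in epithelial cells. The lowest TAP2 value came from the 44 B cells of non-PP pig 2. Relative to the other ileal gates, TAP1 and TAP2 were 3.33-fold and 2.22-fold lower in B cells (adjusted p = 1.24e-05 and 0.000535).

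The class I coactivator NLRC5 was 2.70 and 3.48 CPM in the CD79B gate of PP from pigs 1 and 2, 5.05 CPM in non-PP of pig 2, and 4.34 and 1.81 CPM in the libraries labelled whole ileum pigs 1 and 2. In the CD3E gate it was 16.4 and 15.3 CPM in PP, 21.3 and 18.1 CPM in non-PP and 16.5 and 14.2 CPM in whole ileum. All ileal T-cell values lay above all ileal B-cell values. The B-cell level was 5.36-fold below the other ileal gates (log2 −2.42 ± 0.23 SE, adjusted p = 3.81e-06), a call kept in 12 of 12 alternative fits that changed the scaling, tool, gates or samples, but it rests on 36 UMIs in 3211 cells of pig 1 and 49 UMIs in 3256 cells of pig 2.

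Among the immunosubunits, PSMB9 (log2 −1.13 ± 0.14 SE, adjusted p = 4.78e-05) and PSMB10 (log2 −0.83 ± 0.17 SE, adjusted p = 0.002) were also lower in ileal B cells, whereas PSMB8 did not pass (log2 −0.24 ± 0.14 SE, adjusted p = 0.21). DESeq2 (log2 −0.35, adjusted p = 0.00446) and sums per library (log2 −0.34, adjusted p = 0.029) did call PSMB8 lower. PSMB10 lost its call with library totals in place of TMM scaling (log2 −0.42, adjusted p = 0.0733). PSMB8 in the ileal CD79B gate ran from 344.6 to 450.2 CPM and overlapped its range of 418.5 to 517.2 CPM in the CD3E gate. Thus 6 of the 7 genes passed as lower in ileal B cells, where 16.8% of all 10947 genes tested did, and the median over the 7 genes was −1.15 against 0.05 over all genes tested.

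**Figure D1:**
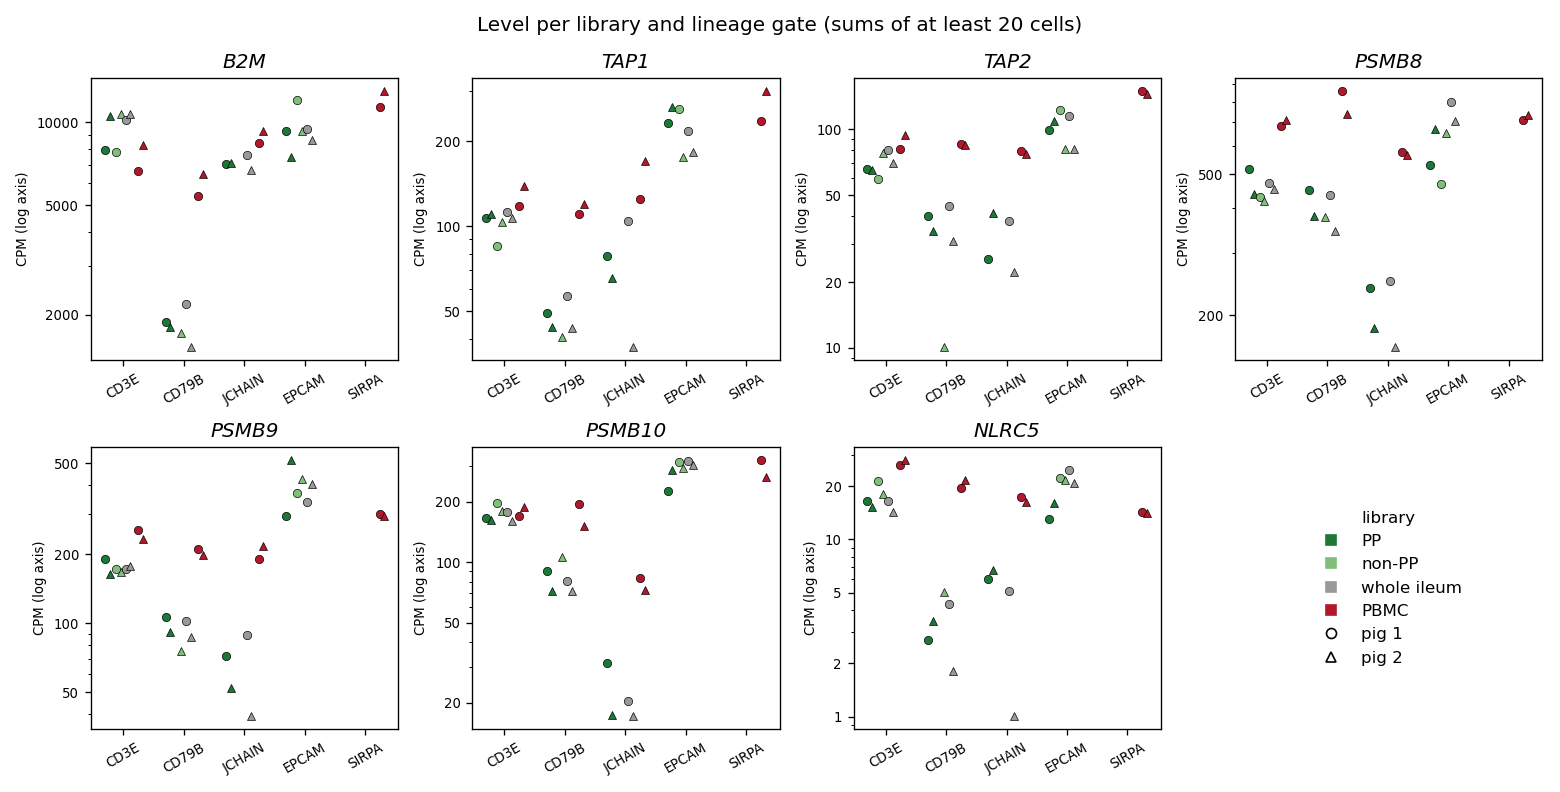
Level of each of the 7 genes (CPM, log axis, 1 panel per gene) by lineage gate, with 1 point per library and gate sum of at least 20 cells, coloured by dissection or PBMC and shaped by labelled pig. Ileal B-cell B2M sits between 1530.2 and 2199 CPM, below all other points in its panel, and the blood points of the CD79B gate lie above the ileal ones in all 7 panels.

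Ileal epithelial cells were higher than the mean of the other ileal gates in all 7 genes, but not above T cells in each. Epithelial B2M (7482 to 12012 CPM) and NLRC5 (13.1 to 24.7 CPM) overlapped their ileal T-cell ranges of 7779 to 10731 and 14.2 to 21.3 CPM. PSMB8 overlapped too, at 469.7 to 797.5 CPM against 418.5 to 517.2 CPM. PSMB9 was 293.6 and 514.9 CPM in the EPCAM gate of PP from pigs 1 and 2, 371.5 and 425.2 CPM in non-PP, and 337.1 and 406 CPM in whole ileum, against a highest ileal T-cell value of 190.9 CPM. PSMB10 was between 225.4 and 316.5 CPM, also above every ileal T-cell value (159.4 to 195.6 CPM). PSMB10 was 3.61-fold, PSMB9 3.49-fold and TAP1 3.08-fold higher than the mean of the other ileal gates (adjusted p = 4.75e-07, 9.96e-08 and 2.23e-06). The smallest difference was that of PSMB8, 1.52-fold (adjusted p = 0.00207), and B2M was 1.78-fold higher (adjusted p = 0.00104). The share of all genes tested that were higher in the EPCAM gate was 28.8%. NLRC5 in the tested EPCAM sums rests on 40 UMIs in pig 1 and 13 in pig 2. B2M and NLRC5 did not pass without pig 1 (B2M then at 0.37 on the log2 scale, adjusted p = 0.157), nor PSMB8 without pig 2. Pig 1 supplied 228 and pig 2 supplied 62 of the epithelial cells in these sums, and a median epithelial cell held 8180.5 to 11770 UMIs against 2220 to 2705 in ileal T cells. Myeloid markers, of which 3 to 7 of 9 were above 0, summed to 505.7 to 2578 CPM in the EPCAM gate, highest in PP of pig 1, against 125.4 to 544.8 CPM in ileal T cells and 40.4 to 91.9 CPM in ileal B cells, and their part in the result was not tested.

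Antibody-secreting cells split the set. B2M in the ileal JCHAIN gate was 7078 and 7128 CPM in PP and 7577 and 6697 CPM in whole ileum. In CPM, each value lay above the B-cell value of the same library and below its T-cell and epithelial values. That order did not hold with the TMM scaling of the tests. There, antibody-secreting cells stood further above the mean of the other ileal gates than epithelial cells (log2 0.83) or T cells (log2 0.52) did. Against the mean of the other ileal gates, which includes the low B cells, B2M was higher (log2 1.29 ± 0.17 SE, adjusted p = 0.000109). PSMB10 was only 31.6, 17.4, 20.4 and 17.2 CPM in the same libraries, lower than in every other ileal gate, and fell 3.44-fold below their mean (log2 −1.78 ± 0.21 SE, adjusted p = 5.01e-05). PSMB9 was 1.62-fold lower (adjusted p = 0.00732), and the remaining 4 genes did not pass. Thus 1 gene was higher and 2 were lower, against 8.95% and 3.75% of all genes tested, and 1 of the 2 lower genes passed when either pig was left out. The scaling mattered in this gate: with library totals alone, the median of all genes moved from −0.16 to −1.05 on the log2 scale, B2M was at 0.38 (adjusted p = 0.067) and TAP1 turned from 0.33 to −0.57 (adjusted p = 0.0241).

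Ileal T cells were higher than the mean of the other ileal gates in 3 genes, B2M (log2 0.52 ± 0.17 SE, adjusted p = 0.0387), PSMB10 (log2 0.76 ± 0.16 SE, adjusted p = 0.00271) and NLRC5 (log2 1.03 ± 0.18 SE, adjusted p = 0.000792), where 16.9% of all genes were higher. That mean includes the low B cells. T-cell PSMB10 lay below every epithelial value, and T-cell B2M and NLRC5 overlapped the epithelial values. Without pig 2, 1 of the 3 passed, and B2M did not pass with RLE size factors either (adjusted p = 0.065). Within the CD3E gate, B2M was higher in pig 2 than in pig 1 in PP, non-PP and PBMC, by 0.40 on the log2 scale in the summed ileum and 0.29 in blood. At 10199 CPM, the library labelled whole ileum pig 1 lay near the pig 2 libraries (10519.6 to 10731 CPM) and above the other ileal libraries of pig 1 (7779 and 7926 CPM). In the ileal CD79B gate the pigs differed by −0.03 on the same scale. With 1 animal of each kind, these differences between pigs have no test.

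In blood, the order of the gates was flatter. B2M in the CD79B gate was 5394 and 6467 CPM in PBMC of pigs 1 and 2, and in the CD3E gate it was 6631 and 8292 CPM, so that the B cells of pig 2 came close to the T cells of pig 1 without reaching them. Against the other blood gates, B cells were lower in B2M (1.52-fold, adjusted p = 0.0378) and TAP1 (1.45-fold, adjusted p = 0.0496), 2 genes where 5.56% of all genes were lower, and neither passed when either pig was left out (TAP1 lost its call in 8 and B2M in 3 of 12 alternative fits). Antibody-secreting cells were lower in PSMB10 (83.3 and 72.4 CPM, log2 −1.30 ± 0.20 SE, adjusted p = 0.000582), the same gene that was lowest in their ileal counterparts, where 6.87% of all genes were lower, and it did not pass without pig 2. In blood T cells none of the 7 genes passed in edgeR's test, 2 had an unadjusted p below 0.05 and DESeq2 called 1, where 17.9% of all genes passed. With the pig as a replicate block, TAP1 (log2 −0.51, adjusted p = 0.031) and NLRC5 (log2 0.56, adjusted p = 0.046) passed in blood T cells.

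Circulating myeloid cells had the highest blood levels of TAP1, at 235.2 and 300.3 CPM in pigs 1 and 2 against 110.3 to 170.4 CPM in the other blood gates. TAP1 was 2-fold higher than in those gates (log2 1.00 ± 0.17 SE, adjusted p = 0.000464), PSMB10 2.11-fold (adjusted p = 0.000197), TAP2 1.70-fold (adjusted p = 0.00782), B2M 1.61-fold (adjusted p = 0.00817) and PSMB9 1.33-fold (adjusted p = 0.0363), 5 genes where 16.8% of all genes were higher. PSMB8 differed by 0.03 and NLRC5 by −0.62 on the log2 scale, and neither passed. NLRC5 was 14.3 and 14.1 CPM in myeloid cells, the lowest values among the blood gates, but from only 7 and 22 UMIs. The next lowest, 17.4 and 16.3 CPM in antibody-secreting cells, came from 5 and 7 UMIs, too few to rank these gates. The count of 5 fell to 2 when either pig was left out, and PSMB9 lost its call in 6 of 11 alternative fits. Ileal myeloid cells, 9 and 7 per pig, were too few to test.

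Between tissues, B cells were the one lineage in which all 7 genes were lower in ileum than in blood. NLRC5 was 2.69 and 3.50 CPM in the summed ileum of pigs 1 and 2 and 19.6 and 21.6 CPM in their blood, a 7.39-fold difference (log2 −2.89 ± 0.22 SE, adjusted p = 2.46e-06). B2M was 1895 and 1803 CPM in ileum and 5394 and 6467 CPM in blood, a 3.59-fold difference (log2 −1.85 ± 0.22 SE, adjusted p = 7.61e-05). The pigs lay close to each other in both genes, and the tissues did not overlap. TAP1 (log2 −1.46 ± 0.21 SE) and TAP2 (log2 −1.36 ± 0.23 SE) were also lower (adjusted p = 0.00024 and 0.000695). The 3 immunosubunits fell by similar amounts, PSMB8 by 1.10, PSMB9 by 1.21 and PSMB10 by 1.26 on the log2 scale (adjusted p = 0.000466, 0.000165 and 0.000451). The 7 of 7 stand against 12.7% of all genes tested that were lower in ileal B cells (TAP2 did not pass without pig 2, adjusted p = 0.056), and their median of −1.36 against 0.03 over all genes.

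Other genes of the pathway did not move as a whole. Of the peptide loading and trimming genes (TAPBP, TAPBPL, CALR, CANX, PDIA3, ERAP1 and ERAP2), 0 of 7 tested passed in either direction between ileal and blood B cells, nor did the constitutive subunits PSMB6 and PSMB7 or any of 11 other 20S core subunits. Over all genes, 2796 of 10947 tested passed in either direction. Both subunits of the interferon-inducible proteasome activator, PSME1 (log2 −1.30, adjusted p = 0.000574) and PSME2 (log2 −1.06, adjusted p = 0.0032), were lower, and the assembly chaperone PSMG3 was higher (log2 1.04). Of 7 transcription factors and coactivators tested, 4 were lower, where 12.7% of all genes were: IRF1 (log2 −0.99), IRF2 (log2 −1.13), STAT2 (log2 −1.21) and CIITA (log2 −1.39), the last the coactivator of MHC class II. Of the class I heavy chain genes, only SLA-5 carried a matching name in the matrices and was listed at 0, so the heavy chains could not be measured by name.

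The fall in B cells was compared with that in T cells. In the CD3E gate, only PSMB8 was lower in ileum: it was 681.4 and 709.1 CPM in blood against 418.5 to 517.2 CPM across the 6 ileal libraries, without overlap (log2 −0.63 ± 0.17 SE, adjusted p = 0.0263), where 5.47% of all genes were lower, and it did not pass when either pig was left out. B2M in T cells differed by 0.32 on the log2 scale (adjusted p = 0.38). Its ileal values of 7779 to 10731 CPM overlapped those in blood (6631 and 8292 CPM) across pigs, pig 1 in blood being the lowest. Within each pig, the summed ileum was above blood, at 7835 CPM in pig 1 and 10648 CPM in pig 2. With the pig as a replicate block, PSMB9 (log2 −0.48, adjusted p = 0.0285) and NLRC5 (log2 −0.56, adjusted p = 0.0292) passed too, making 3 lower. Over all genes, calls in either direction rose from 1582 to 2688 with that block. The tissue difference itself differed between T and B cells for B2M (by 2.17 ± 0.31 SE on the log2 scale, adjusted p = 0.000812), NLRC5 (by 2.33 ± 0.29 SE, adjusted p = 0.00043), PSMB10 (by 1.27 ± 0.27 SE, adjusted p = 0.00797) and TAP1 (by 1.11 ± 0.29 SE, adjusted p = 0.0221), 4 genes where 6.58% of all genes differed in that direction. TAP2 (0.99, adjusted p = 0.055), PSMB9 (0.73, adjusted p = 0.052) and PSMB8 (0.47, adjusted p = 0.24) did not pass, and TAP2 and PSMB9 passed with the pig as a replicate block (adjusted p = 0.0147 and 0.0209). Without pig 1, 1 of the 4 passed and without pig 2, 0 did, when each group is left with 1 animal.

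**Figure D2:**
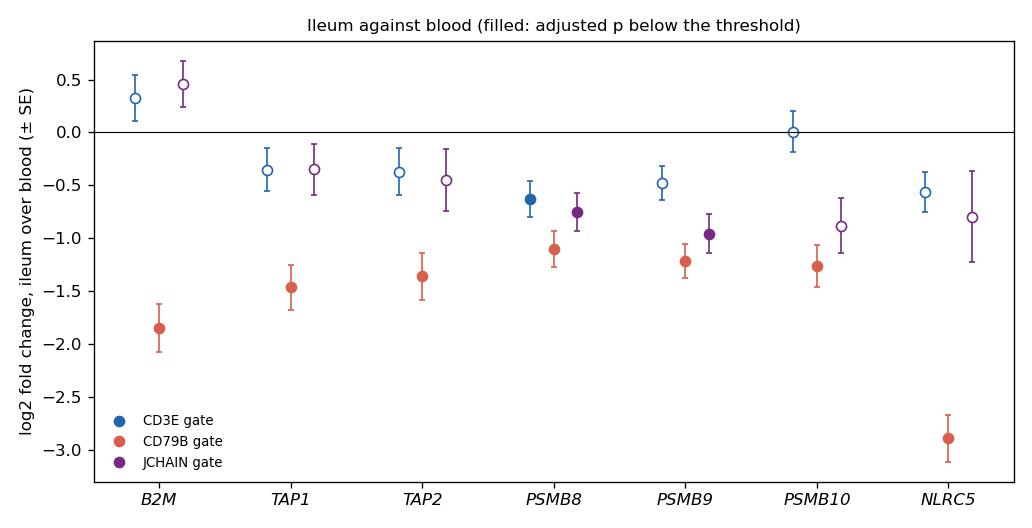
Log2 fold change of ileum over blood for each of the 7 genes, in the CD3E gate, the CD79B gate and the JCHAIN gate, filled where the adjusted p passed. Bars are ± 1 SE from the edgeR fit, whose spread is pooled over all groups of 2 pigs. The CD79B gate is filled for all 7 genes and reaches −2.89 for NLRC5, while B2M lies at 0.32 in the CD3E gate.

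Antibody-secreting cells of the ileum were lower than those of blood in PSMB8 (log2 −0.75 ± 0.18 SE, adjusted p = 0.04) and PSMB9 (log2 −0.95 ± 0.18 SE, adjusted p = 0.0148), 2 genes where 0.731% of all genes were lower. PSMB8 was 162.6 to 249.4 CPM in the 4 ileal libraries with at least 20 such cells and 576.2 and 564.8 CPM in blood, without overlap. These CPM rest on library totals, and their gap is wider than the tested difference with TMM scaling. Over the alternative fits, the log2 difference of PSMB8 reached −1.495. Neither passed when either pig was left out, PSMB8 lost its call in 7 and PSMB9 in 3 of 12 alternative fits, and with library totals alone 5 of the 7 genes were lower. With library totals the median of all genes was −0.506, against 0.015 in the main fit, and only 7.9% of 1519 calls over all genes were higher. The sums hold 84 and 111 ileal and 36 and 45 blood cells.

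Per cell, the gap in B2M was seen after depth was made equal. With each cell thinned to 1250 UMIs, the median ileal B cell held 1 to 2 B2M UMIs in the 5 ileal libraries with at least 20 B cells, and 17.2% to 22.9% of these cells held 0. The median blood B cell held 7 and 8 in pigs 1 and 2, and 0.36% and 0.19% held 0. Before thinning, the medians were 4 to 6 B2M UMIs in ileal and 20 and 30 in blood B cells, at median depths of 2791 to 4116 UMIs in ileum and 3483 and 4505.5 UMIs in blood. The ileal values lay below those of blood in both counts, although the depths of the tissues overlapped. T cells held a thinned median of 10 to 14 B2M UMIs in the 6 ileal libraries and of 9 and 11 in blood. B2M was also abundant in barcodes of at most 100 UMIs, which hold free RNA, at 5987 to 10212 CPM, above its level in ileal B cells. The CD79B gate pools all stages of B cells, and sums over the whole gate do not separate a different mixture of stages from less RNA per cell.

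The same lists were read across the ileal gates. In the CD79B gate, 6 of 7 peptide loading and trimming genes were lower than in the other ileal gates, where 16.8% of all genes were, and of the transcription genes IRF1 (log2 −1.32) and IRF2 (log2 −0.55) were lower, while RFX5, RFXAP and RFXANK, the DNA-binding complex shared by class I and class II promoters, and CIITA were higher. In the EPCAM gate PSME1 (log2 0.74), PSME2 (log2 1.15) and IRF1 (log2 1.57) were higher, as were CALR, CANX and PDIA3 of 7 peptide loading and trimming genes. IRF1 was the one of 7 transcription genes that was higher there, and IRF2 (log2 −0.59), RFXANK (log2 −0.94) and CIITA were lower. Of 11 other core subunits 3 were higher, a share near the 28.8% of all genes. In the JCHAIN gate the same chaperones, CALR (log2 1.48), CANX (log2 0.91) and PDIA3 (log2 1.01), which fold proteins of the secretory pathway in general, were higher. For the interaction of tissue and lineage, PSME1 (log2 1.17) passed in the direction of the 4 genes.

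T-cell subsets, cut by CD4, CD8B or TRDC (the delta chain of the gamma-delta T-cell receptor), differed little. B2M in the ileum was 8977 and 13129 CPM in CD4 cells of pigs 1 and 2, 6590.1 and 9703 CPM in CD8B cells and 7939 and 10292 CPM in TRDC cells. In B2M, pig 2 was above pig 1 in each subset, and the subsets overlapped across pigs. Within each pig, B2M was highest in CD4 cells and lowest in CD8B cells. In edgeR's test none of the 7 genes passed for ileal CD8B against CD4 cells (4.6% of 9198 genes tested in the fit of subsets did, 1 of the 7 genes had an unadjusted p below 0.05 and DESeq2 called 0), for ileal TRDC against CD4 cells (7.15% of all genes, 1 and 1), for blood CD8B against CD4 cells (0.728% of all genes, 0 and 0) or for blood TRDC against CD4 cells (1.07% of all genes, 1 and 0). Ileal PSMB10 did not overlap between the subsets, at 133.1 and 120.5 CPM in CD4, 187 and 176.1 CPM in CD8B and 196.4 and 192.4 CPM in TRDC cells of pigs 1 and 2. PSMB10 was higher in ileal TRDC than CD4 cells with the pig as a replicate block (log2 0.64, adjusted p = 0.0438). The same held with DESeq2, stricter gates, sums per library and the whole ileum libraries added.

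Between tissues, PSMB8 or PSMB9 was the gene that passed in T-cell subsets. PSMB8 in TRDC cells was 430.3 and 385.2 CPM in ileum and 637.3 and 657.1 CPM in blood (log2 −0.62 ± 0.17 SE, adjusted p = 0.0206; 5.45% of all genes were lower). PSMB9 in CD8B cells was 182.8 and 173.1 CPM in ileum and 253.2 and 255.9 CPM in blood (log2 −0.53 ± 0.16 SE, adjusted p = 0.0451, where 4.09% of all genes were lower), and PSMB8 passed there with the pig as a replicate block (log2 −0.52, adjusted p = 0.0143). The tissues did not overlap in either subset, yet neither call was kept when either pig was left out, and over 12 alternative fits PSMB8 in TRDC cells lost its call in 3 and PSMB9 in CD8B cells in 8. In CD4 cells none passed in edgeR's test, 3 had an unadjusted p below 0.05 and DESeq2 called 1, where 6.43% of all genes passed, and with the replicate block B2M was higher (log2 0.51, adjusted p = 0.0166) and PSMB8 lower (log2 −0.55, adjusted p = 0.0169) in ileum.

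Cells outside all gates that held CD2 and no CD3E, CD3D or CD3G transcript form a mixed class, and their markers differed by tissue. In PP and non-PP they held IL22, a cytokine of innate lymphocytes, at 688.6 to 3324 CPM, with myeloid markers at 122.4 to 5716 CPM and B-cell markers up to 762.3 CPM. In blood IL22 was at 0, GNLY, a cytotoxic granule gene, was at 7294 and 2550 CPM, and myeloid markers were at 7760 and 6230 CPM. Levels in this class therefore compare different cells between tissues, and the part of each cell type was not tested. B2M was 10503 and 12355 CPM in blood, higher than in the mean of the 3 T-cell subsets (log2 0.67 ± 0.21 SE, adjusted p = 0.0195), as were TAP1 (log2 1.01, adjusted p = 3.94e-05), TAP2 (log2 0.90), PSMB9 (log2 0.38) and PSMB10 (log2 0.53), 5 genes where 18.5% of all genes were higher. Without pig 1, 3 of the 5 passed and without pig 2, 2 did. NLRC5 went the other way (18.5 and 15.5 CPM, log2 −0.62, adjusted p = 0.0461), where 13.9% of all genes were lower. In the ileum NLRC5 was the one gene that passed (7.16 and 7.15 CPM from 4 UMIs per pig, log2 −1.32 ± 0.38 SE, adjusted p = 0.0342), where 3.5% of all genes were lower, and with the replicate block TAP1 (log2 −0.56), PSMB8 (log2 −0.39) and PSMB9 (log2 −0.40) passed as well, 4 in all (adjusted p = 0.0356, 0.0408 and 0.0468 for these 3). Neither NLRC5 call was kept when either pig was left out. Between tissues, 6 of the 7 genes were lower in ileal CD2+CD3- cells, where 11.2% of all genes were: TAP1 by 1.82, TAP2 by 1.71, NLRC5 by 1.29, PSMB9 by 1.21, PSMB8 by 1.03 and PSMB10 by 0.87 on the log2 scale, of which NLRC5 lost its call in 6 of 12 alternative fits and PSMB10 in 2, when either pig was left out. B2M (log2 −0.48, adjusted p = 0.21) passed with the replicate block (adjusted p = 0.00826), with no filter on low counts (adjusted p = 0.00769) and with stricter gates (adjusted p = 0.0256). Stricter gates leave more cells ungated, so they widen this class. It then also takes in CD2+ cells whose CD79B, EPCAM, SIRPA or JCHAIN counts are too low for the stricter gates.

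The dissections with and without Peyer's patches were then compared within a gate. None of the 7 genes passed in T cells (1.83% of 10062 genes tested did), B cells (0.0% of genes) or epithelial cells (0.209% of genes) in edgeR's test, 0 of the 7 had an unadjusted p below 0.05 in any of the 3 gates, and DESeq2 called 0. In T cells the log2 differences were small, 0.03 ± 0.24 SE for B2M and 0.24 ± 0.26 SE for TAP1, and −0.29 ± 0.26 SE for NLRC5. In epithelial cells B2M differed by −0.47 ± 0.25 SE and NLRC5 by −0.78 ± 0.43 SE. Non-PP held 16 and 44 B cells, and the SE in that gate ran from 0.19 for PSMB8 and 0.25 for B2M to 0.57 for TAP2 and 1.23 for NLRC5 on the log2 scale. For B cells, in all genes tested, 636 had an unadjusted p below 0.05 and DESeq2 called 23.

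The balance of inducible and constitutive proteasome subunits was read as the immunosubunit's share of the UMIs of each pair that occupies the same place in the proteasome. The share is a ratio within the same cells, and each has an exact 95% binomial interval that covers counting error only. PSMB9 made up 50.5% and 47.7% of PSMB9 plus PSMB6 in T cells of PP from pigs 1 and 2 (intervals 48.4% to 52.6% and 45.3% to 50.1%), and 32.3% and 30.1% in B cells of the same libraries (30.9% to 33.7% and 28.7% to 31.5%). In epithelial cells of those libraries it was 68.5% and 72.7%. Over all 6 ileal libraries the T-cell shares were 47.7% to 50.5%, the epithelial shares 65.1% to 74.2% and the B-cell shares, in the 5 libraries with enough cells, 22.4% to 32.3%, without overlap. In blood, B cells reached 55.3% and 56% and T cells 56.4% and 56.8%, side by side.

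PSMB10 showed the same order. It made up 44.3% to 51.4% of PSMB10 plus PSMB7 in ileal T cells, 22% to 30.9% in ileal B cells, 53.6% to 69.6% in epithelial cells and 11.8% to 19.1% in antibody-secreting cells. In blood B cells it was 48.3% and 47.6%. T cells exceeded B cells in 5 of 5 ileal libraries, by 20.7 ± 4.15 percentage points for PSMB9 and 22.3 ± 2.89 for PSMB10 (SD, n = 5 libraries, two-sided exact sign-flip permutation p = 0.0625, the smallest that 5 libraries allow, adjusted p = 0.0938 over 6 tests). T cells lay below epithelial cells in 6 of 6 libraries, the difference being −20.6 ± 3.56 points for PSMB9 and −12.4 ± 4.00 for PSMB10 (SD, exact sign-flip permutation p = 0.0312, the smallest possible with 6 libraries, adjusted p = 0.0938). Antibody-secreting cells lay below B cells in PSMB10 in 4 of 4 libraries, by 8.97 ± 2.27 points (exact p = 0.125, the smallest possible), and showed no common direction in PSMB9, being higher in 2 of 4. With so few libraries no share test could pass after adjustment, whatever the data, since 0.0938 is the smallest adjusted p that these 6 tests allow. The adjusted values therefore decide nothing, and the libraries of a pig share the animal. PSMB8 has no share here, since its partner PSMB5 was not matched to a name in the matrices.

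**Figure D3:**
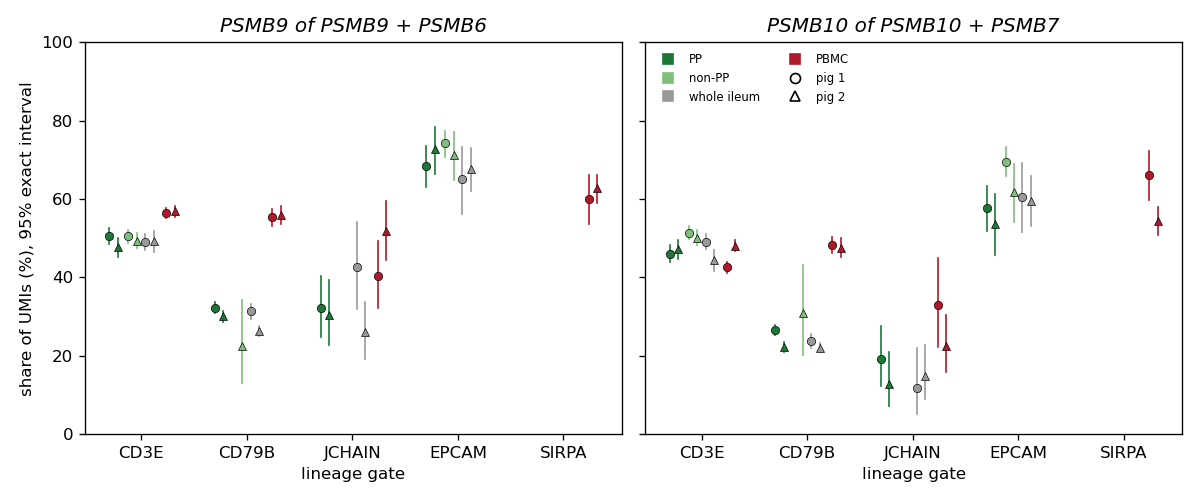
Share of PSMB9 in PSMB9 plus PSMB6 UMIs (left) and of PSMB10 in PSMB10 plus PSMB7 UMIs (right), in percent, by lineage gate, with 1 point per library and exact 95% binomial intervals. Ileal B cells lie at 22.4% to 32.3% on the left and 22% to 30.9% on the right, below ileal T cells, whereas the blood B cells lie at 55.3% and 56% on the left and 48.3% and 47.6% on the right.

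Finally, the genes whose pattern was most like each of the 7 were named by Pearson correlation of log2(CPM + 1) over 22 library and gate sums of at least 50 cells. The points share libraries and pigs, and r is given as a description. PSMB9 was most like CAST (r = 0.96) and PSMB10 (r = 0.96), so that PSMB10 was the one gene of the set among the closest 3 of another. TAP1 was most like the unnamed gene ENSSSCG00000014997 (r = 0.96), then the interferon-induced IFITM3 (r = 0.95) and ANXA2 (r = 0.94), and TAP2 was like OPTN (r = 0.96). B2M was most like an unnamed gene with the identifier ENSSSCG00000001229 (r = 0.93), then ITM2B (r = 0.91) and the interferon-induced IFI6 (r = 0.91). The unnamed gene was at 1058 to 1741 CPM in ileal B cells and 7226 to 8782 CPM in ileal T cells. In blood it was at 4742 and 4823 CPM in B cells and 5840 and 6375 CPM in T cells of pigs 1 and 2. NLRC5 was most like the gene ENSSSCG00000030801 (r = 0.91), then IGF2R (r = 0.91), PSMB8 like VPS35 (r = 0.96) and PSMB10 like UQCRC1 (r = 0.96). Without the blood sums, 16 sums remained and the closest genes changed, to GRAMD2B for B2M (r = 0.96), ENSSSCG00000000148 for TAP1 (r = 0.99), NCOA1 for TAP2 (r = 0.97) and ELOVL6 for PSMB9 (r = 0.98). Neither IFITM3 for TAP1 nor IFI6 for B2M was then among the closest 3, whereas ENSSSCG00000030801 stayed among the closest 3 for NLRC5 (r = 0.97).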

How the data were processed

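The authors deposited raw UMI counts, 1 matrix of genes by barcodes for each library, after alignment to Sscrofa11.1 and a modified Ensembl annotation (the submitters' processing notes name Cell Ranger 4.0.6). They precede the authors' own removal of free RNA, poor cells and doublets, which was not used here. Each library appears in the labels as 4 sequencing runs and was taken as 1 library. Of 25880 gene identifiers, 17733 carried a symbol in the matrices, and TAP2 was named from the identifier table supplied with the data. Positions come from RefSeq.

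Cells with at least 1250 UMIs, 550 genes and at most 12.5% mitochondrial UMIs were kept, and gates required the marker and the absence of the other lineage markers. The members, lists and gates were chosen with earlier results of these data known. Counts were summed per pig (PP and non-PP together), tissue and gate, sums under 10 cells were dropped, and edgeR 4.0.16 (quasi-likelihood test, TMM scaling, R 4.3.3) was fitted to all genes passing its filter (10947 for gates, 9198 for subsets, and 10062 for sums per library), with Benjamini-Hochberg adjustment and a threshold of 0.05. The SE is the log2 difference divided by the square root of F. CPM are UMIs per 1000000 UMIs of a sum. The fit was tested on simulated data. Genes named are the 7 members, members of fixed pathway lists, and the 3 closest by correlation. Heavy chains other than SLA-5, PSMB5, PSMG1 and PSMG2 were not matched by name. Further subsets of the CD79B gate, which entered the fit of subsets, and 1 gene of the transcription list are not reported here.

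Each group held the same animals, but the main edgeR fits had no term for the animal, which entered only the replicate block. Over 28 pairs of sums, the differences between pigs correlated at 0.048 to 0.572 (median 0.22). Alternatives were DESeq2 1.42.0, other scalings, no filter, a replicate block, each pig left out, the whole ileum libraries added, sums per library, stricter gates, removal of doublets, kept otherwise (Scrublet in scanpy 1.11.5, expected rate 0.07, score above 0.25, 131 to 290 cells per library) and free RNA subtracted.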

Additional observations from a re-analysis of the deposited data

Results flagged for a closer look

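The ileum-blood difference was not the same in T cells as in B cells for 4 of the 7 genes, by the test of the difference itself. Of all genes tested, 6.58% differed in that direction, and most of the calls were lost when a pig was left out. On the log2 scale, ileum less blood in the CD3E gate exceeded ileum less blood in the CD79B gate by 2.168 for B2M, 2.325 for NLRC5, 1.27 for PSMB10 and 1.112 for TAP1 (edgeR's quasi-likelihood test, adjusted p = 0.000812, 0.00043, 0.00797 and 0.0221).

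Y-linked transcripts, which no comparison used, were at 206.641 CPM in the library labelled whole ileum pig 1, a female, against 0 to 0.224 CPM in the other libraries of that pig and 119.4 to 225.7 CPM in those of the male pig 2.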

How the results depend on the processing

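Between ileal and blood B cells all 7 genes stayed lower in each of 12 alternative fits, and TAP2 alone lost its call (adjusted p = 0.056 without pig 2). B2M ran from −2.06 to −1.65 and NLRC5 from −3.30 to −2.73 on the log2 scale. Smaller sets moved, most often by 1 gene. Counts below are genes of the 7, and the cause was not tested unless stated.

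With RLE size factors, 1 was lower in blood T cells, 1 in ileal against blood antibody-secreting cells, 0 in blood CD2+CD3- against T cells and 0 in ileal against blood CD8B cells. With library totals only, TAP1 in ileal antibody-secreting cells turned to −0.571, and in that gate 0 were higher and 5 lower, with 1 higher in blood T cells and, between tissues, 0 lower in T cells, 5 in antibody-secreting cells and 0 in CD8B cells. That scaling moved the median of all genes in ileal antibody-secreting cells from −0.158 to −1.055 and the share of calls that were higher from 70.5% to 10.5%. The same share moved from 71.3% to 7.9% for antibody-secreting cells between tissues, from 61.0% to 82.5% in ileal T cells, from 56.7% to 76.7% in ileal B cells, from 50.2% to 62.3% for B cells between tissues, from 51.9% to 41.1% for the interaction and from 52.3% to 42.1% for blood antibody-secreting cells. With DESeq2, 1 was lower in blood T cells, 3 in T cells between tissues, 0 in ileal and 0 in blood CD2+CD3- cells, 1 in CD4 and 2 in CD8B cells between tissues, and 1 was higher in ileal TRDC cells.

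With no filter on low counts, 1 was lower in blood B cells, 1 in antibody-secreting cells between tissues, 0 in blood CD2+CD3- cells, 0 in CD8B and 0 in TRDC cells between tissues, and 1 was higher in CD4 cells between tissues. With the pig as a replicate block, 1 was higher and 1 lower in blood T cells, and 3 were lower in T cells between tissues. In the same fit, 1 was higher in ileal TRDC cells and 4 were lower in ileal CD2+CD3- cells. Between tissues, 1 was higher and 1 lower in CD4 cells, and 2 were lower in CD8B cells. The pairing added calls and took none of these away. It also added calls over all genes, from 1582 to 2688 for T cells between tissues and from 658 to 1040 for ileal TRDC against CD4 cells. In CD4 and CD8B cells between tissues, the counts over all genes rose from 591 to 893 and from 790 to 1455. With the whole ileum libraries, 1 was higher in blood T cells, 1 lower in blood B cells, 2 lower in T cells between tissues, 1 higher in ileal TRDC cells, 2 lower in ileal CD2+CD3- cells, and 2 lower in CD4 and 2 in CD8B cells between tissues. With sums per library, 1 was lower in blood B cells, 2 in ileal and 0 in blood CD2+CD3- cells. Between tissues, 3 were lower in T cells, 3 in CD4, 2 in CD8B and 2 in TRDC cells. In ileal CD8B cells 1 was higher, and 1 in ileal TRDC cells. That fit treats libraries of a pig as separate, and it raised counts over all genes too. They rose from 1077 to 2258 for ileal CD2+CD3- cells and from 423 to 1170 for ileal CD8B against CD4 cells. In CD4 cells between tissues they rose from 591 to 996.

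With stricter gates, 0 were lower in blood B cells, 1 higher in blood antibody-secreting cells, 0 lower in those cells between tissues, 1 higher in ileal TRDC cells, 2 lower in ileal CD2+CD3- cells and 1 lower in CD4 cells between tissues. For CD2+CD3- cells, which are ungated, that setting is looser and not stricter. With doublets removed, 1 was higher in blood T cells, 1 lower in blood B cells, 1 in CD4 and 0 in CD8B cells between tissues. With free RNA subtracted, 1 was lower in blood B cells, 1 in antibody-secreting cells between tissues, 0 in blood CD2+CD3- cells and 0 in CD8B cells between tissues.

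Leaving out a pig leaves 1 sum per group, assumed to vary like the other groups. Called genes then ranged from 1 to 2 (higher, ileal T cells), 1 to 1 (lower, ileal antibody-secreting cells), 0 to 0 (lower, blood B cells), 0 to 1 (lower, blood antibody-secreting cells), 2 to 2 (higher, blood myeloid cells), 0 to 0 (lower, T cells between tissues), 0 to 0 (lower, antibody-secreting cells between tissues), 0 to 1 (higher, interaction), 0 to 0 (lower, ileal CD2+CD3- cells), 2 to 3 (higher) and 0 to 0 (lower) in blood CD2+CD3- cells, and 0 to 0 in CD8B and TRDC cells between tissues. Counts over all genes fell too, from 1386 to 175 without pig 1 and 71 without pig 2 for the interaction and from 2796 to 950 and 793 for B cells between tissues; DESeq2 gave 2218 and the replicate block 2345 for the interaction. The T-cell shares kept their side against B and epithelial cells without any ileal library, as did PSMB10 in B against antibody-secreting cells. For PSMB9, B and antibody-secreting cells had no common side. Their difference came mainly from the library labelled whole ileum pig 1, at 31.3% and 42.7%. The share tests of B against antibody-secreting cells were not run without both whole ileum libraries. Tests of ileal myeloid cells, and of antibody-secreting and myeloid cells in PP against non-PP, were not run, since sums under 10 cells were dropped.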
